A study of Mus musculus with 81 samples.

Results

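The 10 genes followed here encode the catalytic core of the eukaryotic replication fork: Pola1, Pola2, Prim1 and Prim2 for DNA polymerase alpha-primase, Pold1, Pold2 and Pold3 for polymerase delta, Pole and Pole2 for polymerase epsilon, and Pcna for the sliding clamp. They were chosen by name, 10 of 21887 protein-coding genes, and each locus was taken as the mm10 gene model with 10 kb on each side, 925.155 kb in all. Polymerase alpha-primase lays down the RNA-DNA primers that start each new strand, polymerase epsilon extends the leading strand, and polymerase delta extends the lagging strand while held on DNA by the ring-shaped clamp. Aphidicolin is a fungal diterpenoid that inhibits the B-family replicative polymerases, so it is used to slow or stop S phase, and the genes of these enzymes are textbook targets of the E2F transcription factors at the G1/S boundary. The values here are chromatin accessibility at the genes; neither RNA nor protein was measured.

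Accessibility was read by ATAC-seq, in which a transposase inserts sequencing adapters into open DNA, and by its replication-coupled form, repli-ATAC-seq, in which DNA copied during a 10 min pulse of 20 µM EdU is pulled down. The 81 samples form 27 groups of 3. Mouse embryonic fibroblasts (MEF) that carry a doxycycline-driven cassette of Oct4, Klf4, Sox2 and Myc (Col1a1::tetOP-OKSM het), the activator R26-M2rtTA het and the reporter Oct4GFP het, on a Black6-129X1/SvJ background, were all given 2 µg/mL doxycycline, so every MEF group here, controls included, had the 4 factors induced. In the inhibitor experiment, 5 µg/mL aphidicolin was added 4 h after induction for 10 h and cells were taken at 14 h, beside cells without aphidicolin taken at the same time. The other MEF groups were nascent chromatin (taken after the pulse), mature chromatin (chased with 10 µM thymidine to 2 h) and bulk chromatin (the unbound material of each pull-down) at 6, 12 and 36 h, and 4 fractions, Q1 to Q4, sorted at 60 h by dilution of a division dye. Which of the 4 kept most dye is not stated. Wild-type 129/Ola embryonic stem cells (ESC) gave the same 3 kinds of chromatin at 0 h, 9 h and, as epiblast-like cells (EpiLC), 48 h of conversion.

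As models these samples have limits that the labels give: the reprogramming cells are heterozygous for every transgene and come from passages 2 to 3, and the stem cells are 1 line at passages 35 to 45. Apart from the fractions sorted at 60 h, the reprogramming cells were taken as whole cultures. No label says that the replicates were separate cultures, so p-values rest on the spread between libraries alone, and that spread may be technical. A signal from bulk cells cannot tell fewer open cells from less open chromatin in each cell. Of 8 fibroblast markers, 7 had a peak at the gene start in the MEF bulk lists (Pdgfra did not) and 5 of 8 had one in the stem cell bulk lists. Of 7 ES cell markers, 6 had a start peak in the stem cell bulk lists (Dppa3 did not) and 1 to 3 had one in the MEF lists, where Nanog, Tdgf1, Dppa3 and Dppa5a had none. All 4 epiblast-like markers had a start peak in every bulk list, MEF included. Of 4 macrophage and blood markers 1 to 3 had one and of 4 endothelial markers 2 to 3 had one, with Ptprc and Emcn in none of the bulk lists. The 6 libraries of the inhibitor experiment held between 41183769 and 78677381 counts in 139000 regions, with the aphidicolin libraries the 3 deepest. The 25 pooled peak lists held 3222 to 203188 peaks, and the MEF 6 h nascent list is the shortest.

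The promoter sequences of 8 of the 10 genes were found in the RefSeq table (GRCm38.p6); Pole and Prim2 are named only. The windows run from 250 bases before to 50 bases after the gene start. Pold2 has a second listed start inside the gene; the counts and medians below use the outermost start. These 4 show how different the accessible starts of genes in 1 enzyme system can be; capitals mark words of the E2F or CCAAT motif on either strand, and each line ends at the base before the gene start.
Pcna: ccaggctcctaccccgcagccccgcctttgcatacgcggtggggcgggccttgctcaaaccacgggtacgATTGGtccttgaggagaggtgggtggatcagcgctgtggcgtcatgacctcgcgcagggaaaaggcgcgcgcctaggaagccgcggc
Pold1: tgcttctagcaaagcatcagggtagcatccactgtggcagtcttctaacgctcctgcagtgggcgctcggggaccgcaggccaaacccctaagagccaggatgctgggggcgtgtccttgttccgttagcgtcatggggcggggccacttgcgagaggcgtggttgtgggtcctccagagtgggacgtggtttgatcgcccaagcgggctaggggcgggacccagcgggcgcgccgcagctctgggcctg
Pold2: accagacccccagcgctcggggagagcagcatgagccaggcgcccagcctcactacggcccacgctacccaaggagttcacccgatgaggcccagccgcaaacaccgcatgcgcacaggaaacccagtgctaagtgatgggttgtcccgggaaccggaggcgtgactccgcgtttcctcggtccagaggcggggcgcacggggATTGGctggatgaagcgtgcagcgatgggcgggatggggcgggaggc
Prim1: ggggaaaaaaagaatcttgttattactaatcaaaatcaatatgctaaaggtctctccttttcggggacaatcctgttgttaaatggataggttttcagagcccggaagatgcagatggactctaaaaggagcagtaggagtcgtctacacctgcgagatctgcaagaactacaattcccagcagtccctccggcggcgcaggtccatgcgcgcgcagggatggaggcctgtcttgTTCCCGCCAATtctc
The Pcna stretch (chr2:132253181-132253337, minus strand) is the whole gap between Pcna and the divergent gene Cds2, and the stretches of Pold1 (chr7:44548816-44549065, minus strand), Pold2 (chr11:5878257-5878506, minus strand) and Prim1 (chr10:128014965-128015214, plus strand) are the 250 bases before the gene start.

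The E2F words searched, on both strands, were TTCCCGC, the form TTCGCGC, and the forms that open with TTG, namely TTGGCGC and finally TTGCCGC. An E2F word was in the windows of 5 of the 8 genes, Pola1, Prim1, Pold1, Pold3 and Pole2, and in 12.1% of all 21263 windows. Pola1, the catalytic subunit of polymerase alpha, had 4 such words, starting at -169, -138, -121 and 15 from the gene start. In Prim1, the primase subunit that makes the RNA primer, the E2F word at -15 to -9 shares a base with a CCAAT word at -9 to -5, which is why the capitals run together. In Pold1, Pold3 and Pole2 the E2F word lay after the gene start, so no word is in capitals in the Pold1 line. A CCAAT word was in 4 of 8 windows, Pola1, Prim1, Pold2 and Pcna, against 38.2% of all windows. A GC box (GGGCGG) was in 7 of 8, all but Prim1, against 46.2%, and CCGGAAG, an ETS word, in 3 of 8, Pola1, Prim1 and Pold3, against 11.6%. TATAAA was in none of the 8 windows and in 12.6% of all windows, and TTTGAA was in none and in 16.0%, but the window of the second Pold2 start held 1 TATAAA and 2 TTTGAA words. The member windows had a median GC content of 63.2% and 25.5 CpG per window, beside 56.3% and 13 over all windows. Prim1 had 49% GC and 13 CpG, Pole2 also had 13 CpG, and the second Pold2 window had 40.7% GC and 6 CpG. A word match is a description of the sequence and shows no binding.

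All 10 genes had a peak at their start in all 9 bulk lists, from stem cells at 0 h to MEF at 36 h, while 64.2% to 69.3% of all genes had one in these lists. The start peaks ranked high by the authors' peak score: the median member stood at percentile 94.0 to 97.1 of its bulk list, beside 88.1 to 92.3 for the start peaks of all genes that had one. Pcna ranked at percentile 98.0 to 99.5 in the 9 bulk lists, Pold1, the catalytic subunit of polymerase delta, at 96.3 to 97.7, and Pole, the catalytic subunit of polymerase epsilon, at 96.0 to 98.6. The polymerase alpha-primase genes ranked lower. Pola1 stood at 87.6 to 96.3, Pola2, its regulatory subunit, at 75.5 to 88.3, Prim1 at 65.3 to 91.7, and Prim2, the large primase subunit, at 49.7 to 85.9. Cell type did not separate the ranks of Pcna, Pold1, Pold2 or Pole, but the start of Prim1 ranked at 86.9, 91.7 and 87.3 in the 3 stem cell bulk lists and at 65.3 to 84.2 in the 6 MEF ones, with no overlap. The start of Prim2 did likewise, at 81.5, 84.3 and 85.9 in stem cells and 49.7 to 77.8 in MEF. Pole2, the second subunit of polymerase epsilon, went the other way, at 87.6, 90.8 and 89.7 in stem cells and 94.2 to 97.3 in MEF. Each list is a single pooled or consensus set, so these differences have no replicate check.

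**Figure D1:**
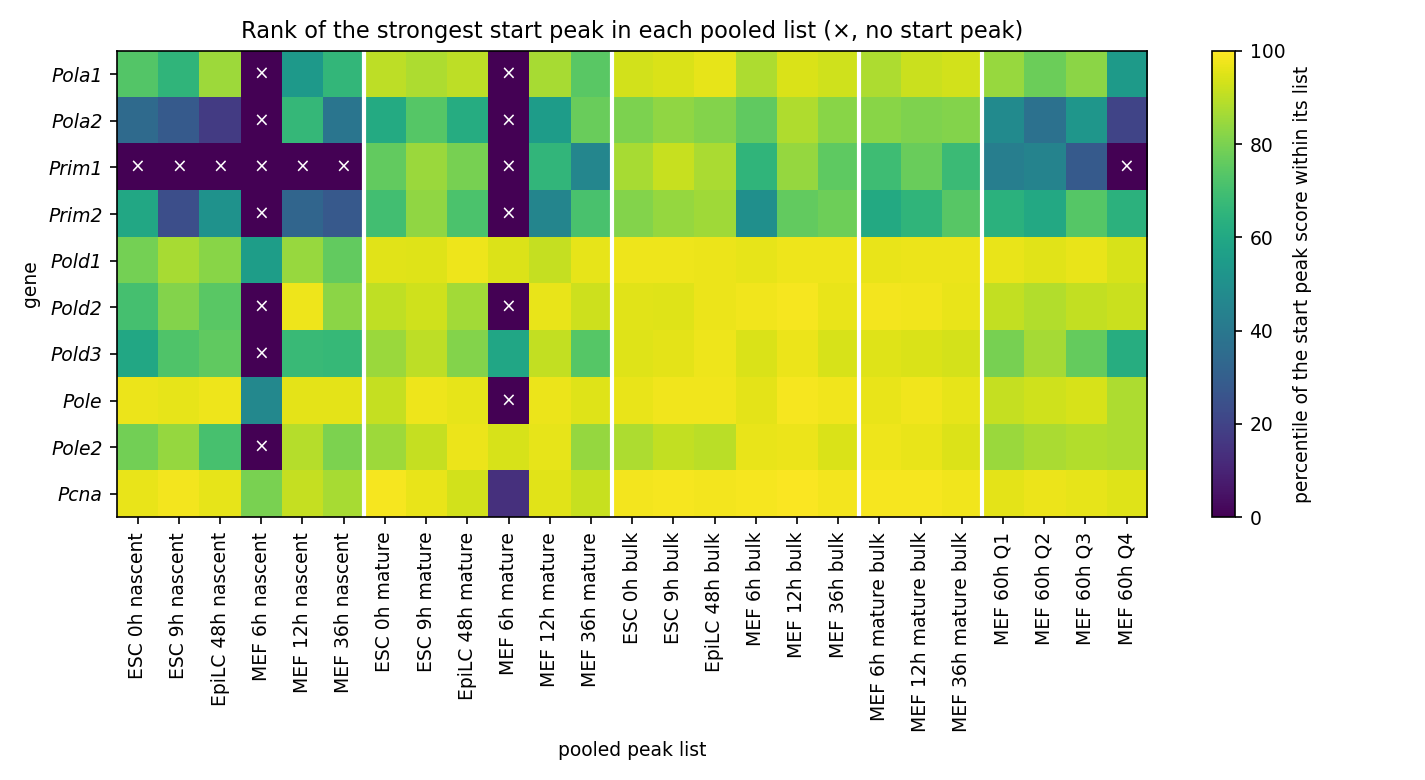
Within-list percentile of the strongest peak at each gene's start, by colour, for the 10 genes (rows) in the 25 pooled lists (columns; white lines part nascent, mature, bulk, mature-arm bulk and sorted lists), with a cross where there was no start peak. Pcna, Pold1, Pold2 and Pole are above percentile 95 in all 9 bulk lists, and Prim1 has a cross in all 6 nascent lists.

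The start of Prim1 was the one member start absent from nascent chromatin in all 6 lists. In 5 of the 6 nascent lists the other 9 genes all had a start peak, while 44.5% to 56.0% of all genes had one. The MEF 6 h nascent list, with 3222 peaks, held the starts of Pold1, Pole and Pcna, and 8.97% of all gene starts. In mature chromatin, 2 h after copying, all 10 starts were present in 5 of the 6 lists, Prim1 among them at percentile 45.7 to 84.9. The MEF 6 h mature list, with 14281 peaks, held the starts of Pold1, Pold3, Pole2 and Pcna. In bulk Prim1 ranked at 65.3 to 84.2 in MEF, and it had no start peak in sorted fraction Q4. In the 3 stem cell series bulk lists it ranked at 86.9, 91.7 and 87.3. Pola2 (80.1, 83.5 and 81.6) and Prim2 (81.5, 84.3 and 85.9) ranked lower there, and their starts had nascent peaks at those times. The other genes, Pole2 at 9 h excepted, ranked higher than Prim1 in these lists. The part of bulk rank in the nascent result was not tested. The nascent ranks spread widely over the 10 genes: Pole reached percentile 95.9 to 97.4 in the 5 fuller nascent lists and Pcna 87.1 to 98.4, while Pole2 stood at 70.8 to 89.0, Pola2 at 17.2 to 66.7 and Prim2 at 24.0 to 59.9.

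The share of bulk peaks that had an overlapping nascent peak was higher at the member starts than elsewhere in their loci. In stem cells at 0 h, 9 h and EpiLC at 48 h, 90% of member start peaks (9 of 10 each time) had one, with a 95% Wilson interval of 59.6% to 98.2%, beside 64.3%, 61.7% and 74.4% of start peaks of all genes. Away from the starts the shares were 13.8%, 12.8% and 24.6%, beside 6.19%, 6.46% and 11.7% over all loci. In MEF at 6, 12 and 36 h, 30%, 81.8% and 90% of start peaks had a nascent peak, beside 12.7%, 61.6% and 64.5% over all starts. The other peaks of the loci gave 1.47%, 9.30% and 13.2% in MEF, beside 0.697%, 6.13% and 4.81%. With an overlap of 1 bp, both kinds of site had a share above that of all genes at each time, but the shares rest on 10 or 11 start peaks and the intervals cover counting error only. Where 0.5 of the bulk peak had to be covered, no member peak of MEF at 6 h was in the nascent list, beside 0.352% of all starts and 0.0590% of other sites. For Prim2 and Pole either end of the gene counted as a start, which adds a far-end peak of Prim2 in some MEF lists.

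The mature shares were higher than the nascent ones at the starts and away from them. In MEF the mature lists were set against the bulk lists of the mature arm (97, 86 and 72 member peaks) and the nascent lists against those of the nascent arm (78, 97 and 63), so the peaks are not the same. All member start peaks had a mature peak in stem cells and EpiLC (84.3%, 89.4% and 87.7% of all starts), and 36.4%, 90.9% and 100% had one in MEF at 6, 12 and 36 h (38.0%, 81.5% and 78.6% of all starts). Away from the starts 46.3%, 59.0% and 47.8% of member peaks had a mature peak in the 3 stem cell series times, beside 36.9%, 56.9% and 42.5% over all loci. In MEF these shares were 5.81%, 40% and 24.2%, beside 4.25%, 31.0% and 20.7%. The nascent lists, with 3222 to 27693 peaks, are also shorter than the mature ones, with 14281 to 94946. With lists cut to equal length by score, the share of all member peaks with a nascent peak was 66.7% to 92.9%, beside 46.7% to 72.2% over all loci, and that with a mature peak 33.3% to 100%, beside 52.8% to 82.9%. At that length the members lay below all loci at ESC 0 h (68.4% against 72.2% nascent, 78.9% against 81.4% mature). The member starts stood below all starts in nascent share at ESC 9 h (87.5% against 90.3%) and at EpiLC 48 h (88.9% against 93.4%). MEF 6 h rests on 3 member peaks.

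**Figure D2:**
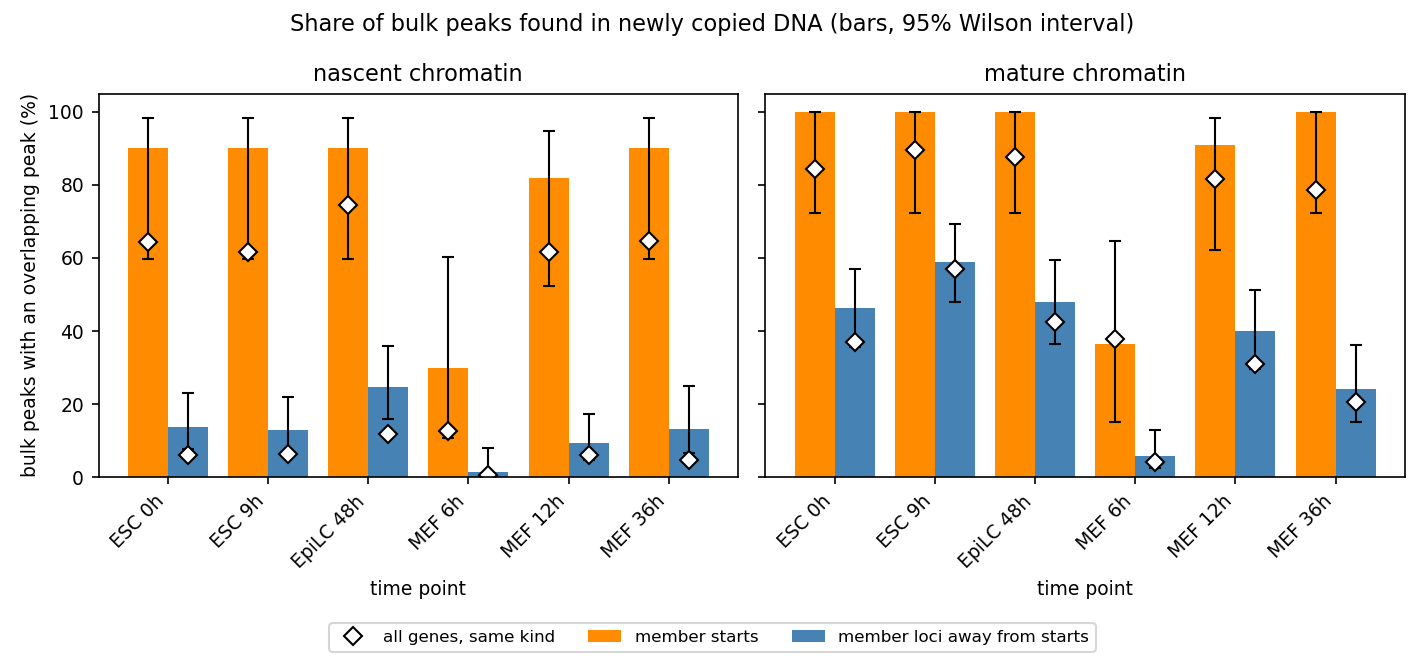
Percent of bulk peaks with an overlapping nascent (left) or mature (right) peak at each time, for the start peaks of the 10 genes (orange) and the other peaks of their loci (blue), with 95% Wilson intervals as bars and the value over all genes as diamonds. Start bars stand above the other-site bars at every time, and MEF 6 h is the lowest time in both panels.

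Over all 25 lists the 10 loci held 187 merged sites, from 6 at Pcna to 62 at Prim2, whose locus of 236.001 kb is the second longest after that of Pola1 (347.622 kb). Of these, 71 were in stem cell or EpiLC bulk lists only, 67 in MEF bulk lists only and 49 in both, and 28 were in all 9 bulk lists. This split sets 3 stem cell series lists against 6 MEF lists. Neither it nor the site counts that follow were taken over all loci, so they describe these loci without a background. Sites in every one of the 25 lists were 2, the starts of Pold1 and Pcna. Nascent chromatin held 36 of the 187 sites: 9 starts, 8 sites within 1 kb of the end of a neighbouring gene and 19 elsewhere. Sites in all 3 stem cell bulk lists and in no MEF bulk list numbered 14, of which 7 were at Prim2, and sites in all 6 MEF bulk lists and no stem cell one numbered 17, of which 6 were at Prim2. One such Prim2 site in its gene body, chr1:33621643-33622373, was in 8 lists, none of them from MEF bulk, and chr1:33525615-33526237 was in 13 lists, none from stem cell bulk.

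Sites away from the starts that were in most lists lay mainly by neighbouring genes. At chr10:128034828-128036535, a peak in 24 of 25 lists covers the start of Naca, the gene after Prim1, and at chr2:132262058-132263998 a site in 24 lists lies before the start of Pcna, inside Cds2. Pcna also shared chr2:132247464-132248288, near Tmem230, in 23 lists. Pola2 had a strong site in its own gene body, chr19:5944713-5945686, 19.0 kb from its start, in 21 lists, with a peak score up to 13227. The plot of sites by distance shows the starts at the top and most gene-body sites in few lists; 43 of the 187 sites were in a single list.

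**Figure D3:**
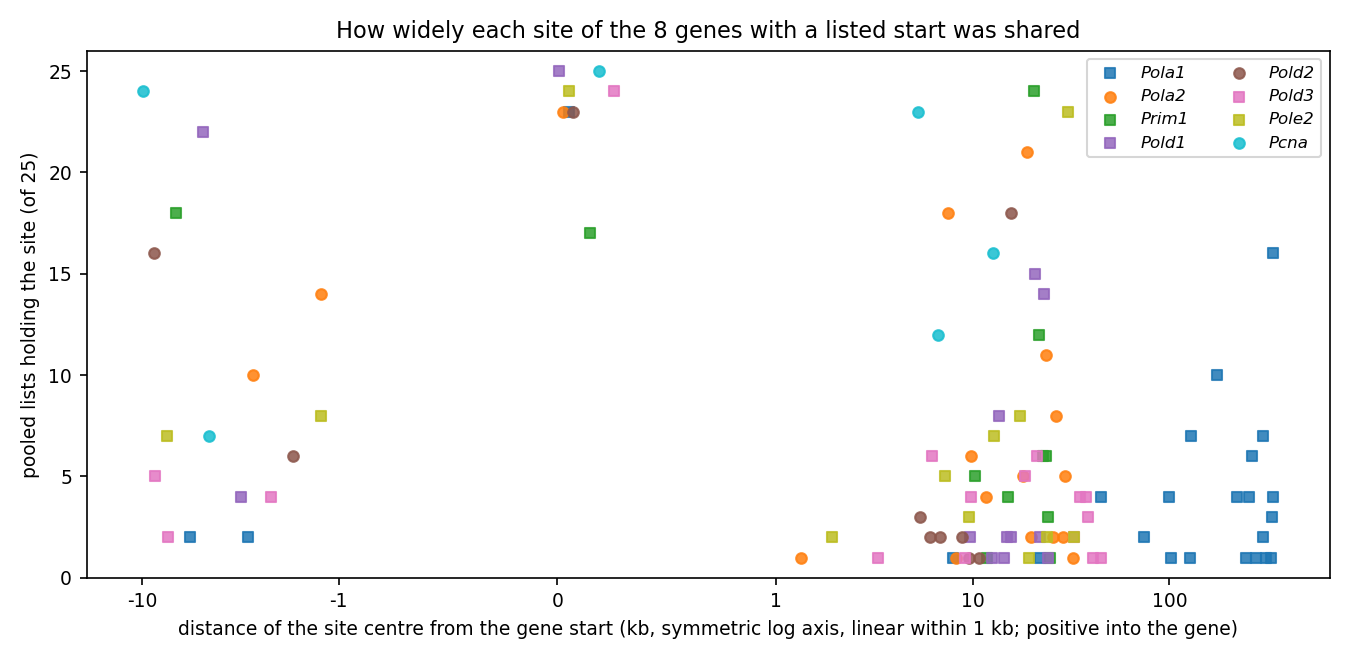
Number of the 25 pooled lists that hold each merged site (vertical axis) against the distance of the site's centre from the gene start in kb (symmetric log axis), for the 8 genes with a listed start. The starts of Pold1 and Pcna are in all 25 lists and that of Prim1 in 17.

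Sites within the loci differed between the lists of 0 h and 48 h, while each member start had a peak in both. Of the 90 bulk peaks of stem cells at 0 h, 37 (41.1%) had no peak in EpiLC at 48 h, beside 37.2% over all loci, and 21 of the 79 EpiLC peaks (26.6%) were not there at 0 h, beside 31.7%. None of the 10 start peaks was lost or gained (Wilson upper limit 27.8%). The same share over the starts of all genes was not taken, here or for MEF below. Whether kept starts are particular to these genes is therefore not known. Where 0.5 of a peak had to be covered, 1 of the 10 was lost (10%, upper limit 40.4%). These limits cover counting error over 10 genes chosen by name. With 1 list per time, the spread between libraries is not known. Prim2 lost 13 of 26 peaks, Pcna lost 0 of 5, and at Pold1 7 of the 10 EpiLC peaks were new. In MEF, 26 of 78 peaks (33.3%) at 6 h had none at 36 h, beside 34.8%, and 10 of 63 (15.9%) were new at 36 h, beside 20.0%; again no start changed. In the bulk lists of the mature arm 34 of 97 (35.1%) were lost and 7 of 72 (9.72%) gained, beside 35.3% and 12.3%, and 1 far-end peak of Prim2 was the only start-window loss. The member shares stood within a few points of the shares over all loci, with lists of unequal length. The sorted fractions at 60 h held 37, 35, 40 and 32 member peaks in Q1 to Q4. Of the 32 in Q4, 30 (93.8%) were found in each of Q1, Q2 and Q3, and of the 37 in Q1, 29 (78.4%) were found in Q4. Among the fractions, the Prim1 start was missing from Q4 only. Q4 was also the shortest of these lists, with 57762 peaks beside 64930 to 73518. It held a start peak for 52.6% of all genes, beside 58.4% to 58.9% in the others. The shares between fractions were not taken over all loci.

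With aphidicolin, added while the 4 factors were on, accessibility fell at the starts of 6 of the 10 genes and rose at none. Calls came from edgeR's quasi-likelihood test over 138996 regions, at a Benjamini-Hochberg adjusted p under 0.05. Among all start regions of the genome 49.5% were lower and 3.44% higher, so the member count is near the background; the median log2 fold change was -0.23 at the member starts and -0.25 at all starts. Values below are CPM, counts scaled to library size with the trimmed mean of M-values (TMM). Libraries a, b and c are the count table's own columns within each group. All 10 means were lower with aphidicolin, and the values of the groups did not overlap at 6 of 10 starts. The share without overlap was 46.6% over all regions, and it was not taken over start regions alone.

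Of the polymerase alpha-primase genes, 1 of 4 starts passed the test. Pola1, the alpha catalytic subunit, had 16.3, 17.5 and 17.7 CPM with aphidicolin and 21.6, 21.0 and 18.4 CPM without, so that the log2 fold change was -0.24 ± 0.09 (SE, with adjusted p = 0.034). The groups did not overlap, but the call was lost without aphidicolin library a, b or c or without untreated library a or b. Pola2 had 14.8, 13.8 and 13.4 CPM with aphidicolin and 17.2, 16.2 and 15.0 CPM without (-0.20 ± 0.09; adjusted p = 0.071), again without overlap and without a call. Prim1 had 6.26, 7.30 and 7.10 CPM with aphidicolin and 7.46, 7.73 and 6.97 CPM without (-0.10 ± 0.10; adjusted p = 0.45), values that overlap. Prim2 had 23.3, 21.9 and 21.1 CPM with aphidicolin and 28.3, 24.1 and 22.3 CPM without (-0.18 ± 0.09; adjusted p = 0.14), also overlapping. Neither primase gene's start passed the test.

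Of the polymerase delta genes, 2 of 3 starts passed the test. Pold2, its second subunit, had 36.9, 31.3 and 30.2 CPM with aphidicolin and 53.1, 48.1 and 39.8 CPM without, so that the log2 fold change was -0.52 ± 0.10 (adjusted p = 0.0011). Pold1 had 38.0, 33.3 and 34.1 CPM with aphidicolin and 49.7, 48.5 and 44.4 CPM without (-0.44 ± 0.08; adjusted p = 0.00083). In both genes every aphidicolin library was below every untreated one, and the calls held with each library left out in turn. Pold3, an accessory subunit that binds the clamp, had 29.8, 27.5 and 29.4 CPM with aphidicolin and 34.7, 34.5 and 28.2 CPM without (-0.17 ± 0.09; adjusted p = 0.15). Its groups overlap because untreated library c lay below 2 of the 3 aphidicolin libraries.

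Pcna, the clamp, had 54.1, 48.6 and 49.3 CPM with aphidicolin and 68.5, 65.0 and 57.8 CPM without (-0.33 ± 0.08; adjusted p = 0.0056), with no overlap, and the call held with each library left out. Pole had 36.8, 34.0 and 33.2 CPM with aphidicolin and 52.3, 43.2 and 36.2 CPM without (-0.34 ± 0.11; adjusted p = 0.018), with overlap in untreated library c; the call was lost without aphidicolin library b or c or untreated library a or b. Pole2 had 30.1, 28.2 and 30.8 CPM with aphidicolin and 35.5, 34.3 and 33.6 CPM without (-0.21 ± 0.08; adjusted p = 0.041), with no overlap, and lost its call without aphidicolin library a, b or c or untreated library b. The number of start regions called lower was 3 without aphidicolin library b or c or untreated library b, and 9 without untreated library c.

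**Figure D4:**
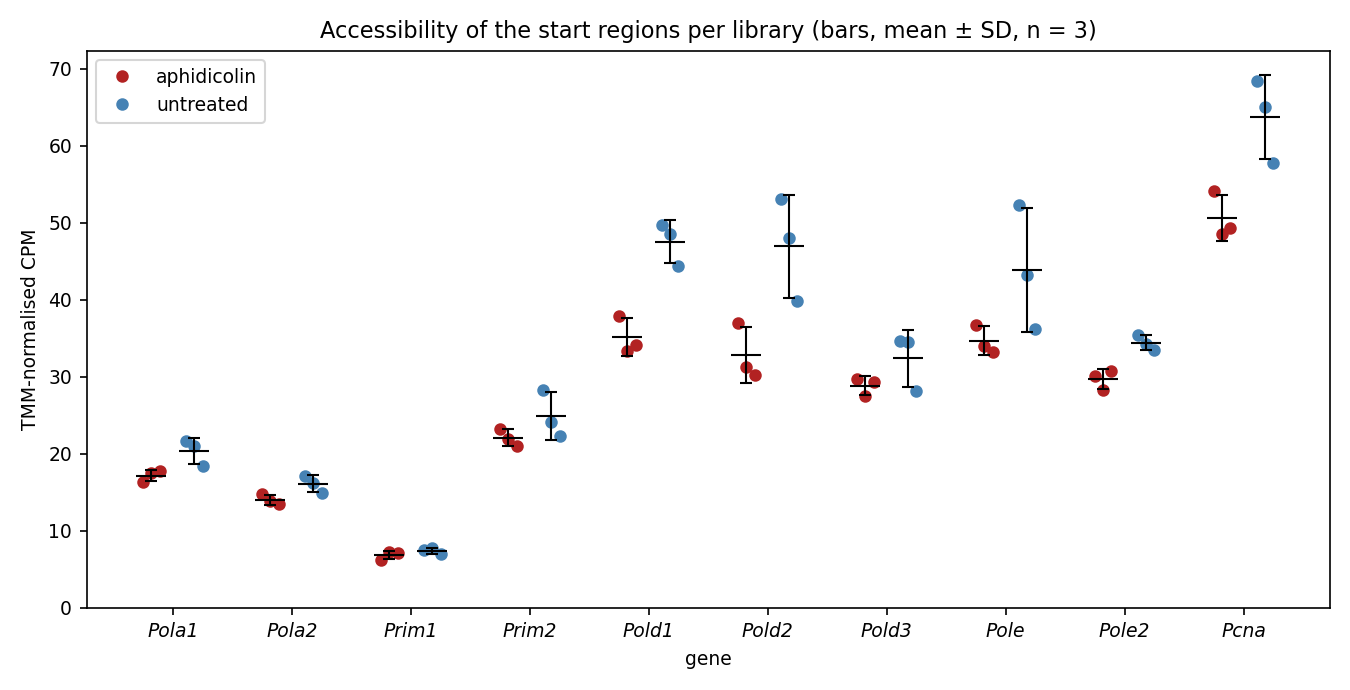
TMM-scaled CPM of the start region of each gene in the 3 aphidicolin libraries (red) and the 3 untreated libraries (blue), with mean ± SD as bars. Each aphidicolin mean is below its untreated mean; the groups are apart at Pola1, Pola2, Pold1, Pold2, Pole2 and Pcna, and under offsets that follow region strength Prim2, Pold3, Pole, Pole2 and Pcna turn to 0.10, 0.15, 0.025, 0.11 and 0.094 (log2) with none of the 10 called.

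The start changes moved with the strength of a region. In the strongest of 10 equal classes of all regions the median log2 fold change was -0.32 and 72.0% were called lower, while in the weakest class it was 0.37 and 33.0% were called higher; 8 of the 10 member starts lay in the strongest class, with Pola2 in class 9 and Prim1 in class 8. The share of a library's counts in all start regions was 33.2%, 31.2% and 31.3% with aphidicolin, against 37.7%, 35.3% and 33.2% without. With offsets fitted to region strength, none of the 10 starts was called, beside 7.7% lower and 7.18% higher among all starts, and the median member value was 0.00; Prim2, Pold3, Pole, Pole2 and Pcna turned to 0.10, 0.15, 0.025, 0.11 and 0.094. With scaling to library totals, which moves the median of all regions to 0.18 and calls 7.99% of them lower and 30.3% higher, 2 of the 10 starts, Pold2 and Pold1, stayed lower, beside 25.7% lower and 8% higher of all starts, and Prim1 stood at 0.06. The part of signal-to-background in the libraries in these changes was not tested.

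Over all 68 regions at the 10 loci, 15 were lower, 9 higher and 44 not called, beside 17.9% lower and 18% higher of all regions (with strength offsets, 6 lower and 6 higher, beside 10.8% and 11.1%); the median log2 fold change was 0.02 at the members and 0.02 over all regions. Away from the starts 9 were lower and 9 higher of 58, beside 14.2% and 19.8% of all such regions. The lowest fold change of the lot belonged to the gene-body site of Pola2 at chr19:5944932-5945642, with 58.5, 54.6 and 57.2 CPM with aphidicolin and 87.4, 93.7 and 90.0 CPM without (-0.67 ± 0.08; adjusted p = 4.2e-05). The groups stand well apart, and the region was called lower under all 14 alternatives that refit the regions, with -0.21 (adjusted p = 0.023) under the strength offsets. It is the site seen in 21 pooled lists. A weaker Pola2 site at chr19:5956771-5956971 was also lower (-0.37; adjusted p = 0.021).

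At Pcna, 3 regions besides the start were lower. The one at chr2:132247541-132248134, by Tmem230, had 19.6, 16.6 and 17.7 CPM with aphidicolin and 27.5, 23.5 and 22.0 CPM without (-0.44; adjusted p = 0.0021). The one at chr2:132262856-132263714 had 29.6, 27.3 and 25.3 CPM with aphidicolin and 39.0, 35.2 and 33.4 CPM without (-0.39; adjusted p = 0.0025). Neither pair of groups overlaps, but under the strength offsets the values were -0.19 (adjusted p = 0.087) and -0.07 (adjusted p = 0.46), and both calls were lost. The lower regions besides the starts at the Prim1, Pold2 and Pole2 loci lay outside the member gene or by a neighbour: chr10:128035276-128036130 by Naca (-0.32), chr11:5861634-5863196 by Aebp1 (-0.29) and chr12:69196749-69198449 beyond the far end of Pole2 (-0.32), and under the strength offsets these 3 turned to 0.0095, 0.051 and 0.057.

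The 9 higher regions were mostly in the long genes: 4 at Prim2, 3 at Pola1, 1 at Pold3 and 1 at Pole2. They lay in strength classes 1 (the weakest) to 5, except that of Pole2, which lay in class 8. At Pola1, chrX:93542978-93543117 had 0.993, 0.872 and 1.35 CPM with aphidicolin and 0.307, 0.579 and 0.650 CPM without (1.07), and chrX:93332265-93332736 had 3.31, 3.54 and 4.15 CPM with aphidicolin and 2.13, 2.45 and 2.35 CPM without (0.67). At Prim2, chr1:33484323-33484486 had 1.17, 1.48 and 1.34 CPM with aphidicolin and 0.526, 0.824 and 0.550 CPM without (1.07). In each of these the groups are apart. Pold3 gave chr7:100130175-100130322, with 1.57, 1.59 and 1.87 CPM with aphidicolin and 0.877, 0.913 and 1.05 CPM without (0.83), and Prim2 also gave chr1:33595066-33595200, with 1.95, 2.25 and 2.96 CPM with aphidicolin and 0.987, 1.25 and 1.52 CPM without (0.94). Of the 9 higher regions, 7 had a peak in all 3 aphidicolin lists and in fewer than 3 untreated lists; a region entered the table by having a peak in all 3 lists of a group, so such regions were in the table through the aphidicolin lists. The Pole2 site chr12:69235170-69236032 (0.30, adjusted p = 0.014) and the Prim2 site chr1:33647686-33647938 (0.41, adjusted p = 0.023) had a peak in all 6 lists. Under the strength offsets the Pole2 site stayed higher (0.38, adjusted p = 0.0062). The Prim2 site then lost its call (0.31, adjusted p = 0.092). Both calls were also lost without aphidicolin library c or untreated library b. The Pola1 site at 93332265, the Pold3 site and both Prim2 sites kept their calls in the 13 refits that could be run, but they had a peak in 0 or 1 untreated lists and dropped out when peaks in all 6 lists were required, so these calls rest on regions listed through the group where they are high.

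**Figure D5:**
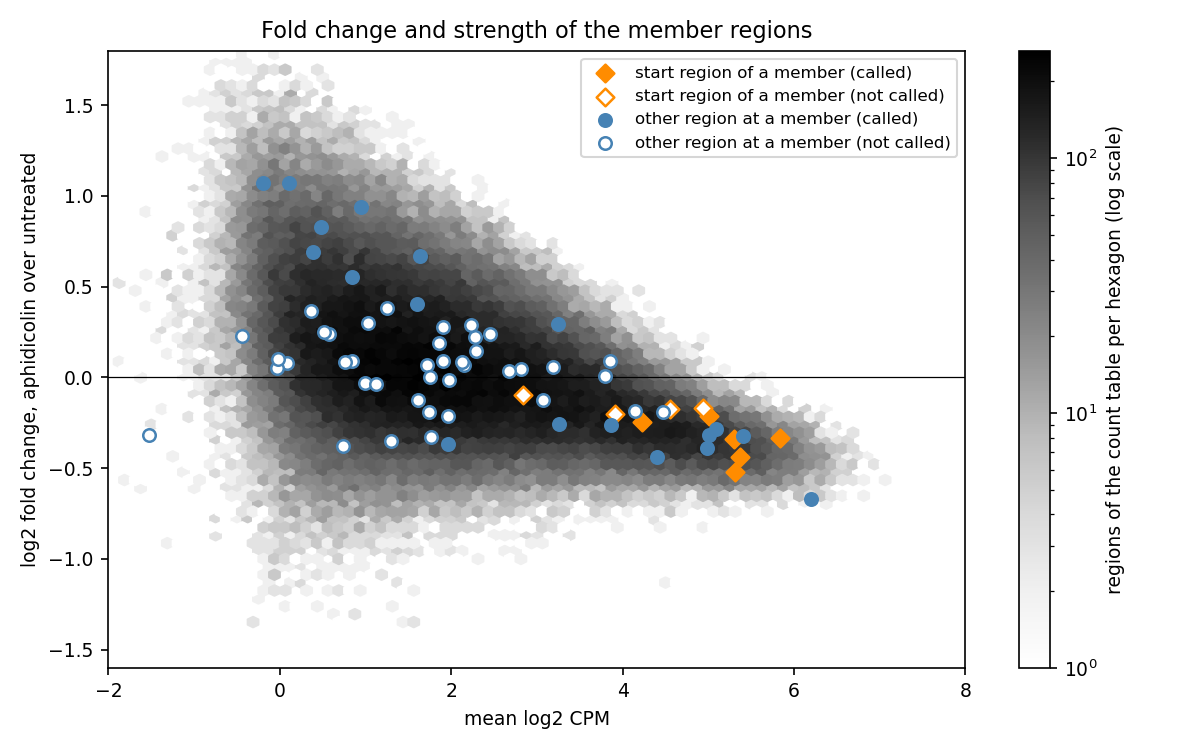
Log2 fold change (aphidicolin over untreated) of every region of the count table against its mean log2 CPM, as grey density on a log scale, with the start regions (orange diamonds) and other regions (blue circles) of the 10 loci, filled where called. The strongest class of regions has a median of -0.32 and the weakest one of 0.37, and the Pola2 gene-body site at -0.67 is the lowest member.

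Summed over each locus, 4 genes were lower and 2 higher of 10, beside 26.1% lower and 25.5% higher of 18144 loci; the median was -0.03 for the members and 0.00 over all. Pola2 had 76.0, 74.1 and 76.1 CPM with aphidicolin and 90.8, 101 and 101 CPM without (-0.37; adjusted p = 0.00012), the groups apart. The other lower loci were Pold2 (-0.18; adjusted p = 0.025), Pcna (-0.12; adjusted p = 0.012) and Pold1 (-0.10; adjusted p = 0.036). The higher loci were the long genes Pola1, with 29.6, 32.3 and 34.3 CPM with aphidicolin and 25.8, 28.1 and 27.1 CPM without (0.25; adjusted p = 0.0064), and Prim2, with 112, 116 and 119.8 CPM with aphidicolin and 96.7, 104 and 106 CPM without (0.18; adjusted p = 0.0048). At Pola1 4 of 7 regions and at Prim2 7 of 21 were in the table through the aphidicolin lists only, and none through the untreated lists only. The part of this listing in the 2 sums was not tested. The Pola1 call was also lost with no flank and with 50 kb on each side. Prim1 (-0.04), Pold3 (0.12), Pole (0.02) and Pole2 (-0.01) did not pass. The locus sums had their own library sizes and TMM factors, so locus CPM and fold changes are not on the scale of the region values. Scaled to library totals instead, the median log2 fold change was 0.03 over all loci and 0.18 over all regions. Pole2, with 2 of its 3 regions called lower and 1 higher, stood at -0.01 as a locus. Under the strength offsets Pola2 stayed lower and Pola1 and Prim2 higher, and the other 3 calls went (20.4% of all loci lower and 20.1% higher); without aphidicolin library b or c only Pola2 was lower, and without untreated library b 2 loci were.

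The peak caller found more member peaks with aphidicolin: 70, 83 and 79 peaks against 64, 63 and 56 without. The means were 77.3 ± 6.66 with aphidicolin and 61 ± 4.36 without (SD, n = 3 each), and the two-sided exact permutation p was 0.1, the smallest that 3 against 3 libraries can give. The excess was 1.27 times at the members and 1.26 times for the whole lists, and with every list cut to the same length by score both groups averaged 57.3 (exact permutation p = 1). Prim2 (22, 28 and 28 against 18, 19 and 17), Pola1 (8, 11 and 10 against 5, 6 and 4) and Pold3 (4, 4 and 5 against 3, 3 and 3) had more in each aphidicolin list, while Pcna had 6 in all 6 lists. The aphidicolin libraries were the deeper ones.

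The genes that work with these enzymes are given by locus sums, to be read beside 26.1% lower and 25.5% higher of all loci. The fork assembly list had 6 lower and 0 higher of 12. Those with the smallest edgeR p were Gins2 (log2 fold change -0.34), Gins4 (-0.23) and Wdhd1 (-0.20), parts of the helicase complex and its polymerase alpha link. Timeless, Mcm10 (-0.24) and Ticrr were the others. Other subunits and clamp loaders had 3 lower and 0 higher of 12: Rfc2 (-0.27), Chtf18 (-0.26) and Rfc4 (-0.19), all of which belong to complexes that load the clamp. Okazaki fragment maturation and single-strand binding had 3 lower (Rnaseh2a -0.20, Rpa3 -0.18, Rpa2 -0.17) and 2 higher (Lig1 0.34, Rnaseh2b 0.19) of 9. Clamp partners had 2 lower of 6, Uhrf1 (-0.20) and Dnmt1 (-0.09). The translesion and repair polymerases had 5 lower and 2 higher (Polb 0.22, Polh 0.12) of 14. Of the 5 lower ones, Polg2 (-0.25), Polg (-0.21) and Poll (-0.14) had the smallest p. Each list's median lay between -0.10 and -0.02, beside 0.00 for all loci. Under the strength offsets 5 of 12 fork assembly loci and 3 of 12 other subunits and clamp loaders were lower. Of the clamp partners 1 of 6 was lower, and these 3 lists had 0 higher. The Okazaki list then had 3 lower and 2 higher of 9, and the translesion list 3 lower and 2 higher of 14. Of all loci 20.4% were lower and 20.1% higher. Of the marker loci, 2 of 8 fibroblast ones were lower and 3 higher, and 3 of 6 tested ES cell ones, 1 of 4 epiblast-like and 3 of 4 endothelial ones were higher with none lower; blood markers had 2 lower and 2 higher of 4. Under the strength offsets fibroblast markers had 0 lower and 3 higher, ES cell markers 1 lower and 1 higher, epiblast-like markers 1 higher, endothelial markers 2 higher and blood markers 2 lower and 0 higher. The part of cell makeup in the member values was not tested.

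The genes whose start ranks over the 25 lists were closest to the members' median profile were Arf3, at a mean absolute difference of 2.06 percentile points, Tipin (2.51), Nkapd1 (2.57), Slc11a2 (2.73) and Phlda3 (2.94), out of 21877 other genes. Among the members, Pold2 (4.30) and Pola1 (5.13) were nearest that median and Prim1 (33.1) was the farthest. Prim1 had a start peak in 17 of the 25 lists, against 23 to 25 for the other 9 genes.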

How the data were processed

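Peak lists and a table of counts per region were used as deposited. The submitters' processing notes name mm10, MACS2 2.2.0, bedtools 2.26.0, Bowtie2 2.2.5, bcl2fastq 2.19.1, SAMtools 1.4.1 and cutadapt 2.2.0, with no settings. The deposited peak score is the authors' own and served for ranks within a list. MEF lists were called on merged replicates per the peak names, the nascent-arm and mature-arm bulk lists of each MEF time were told apart by file name and elimination, sorted lists are consensus lists, and for stem cell lists the sources used here give no pooling. Deposited counts were tested with edgeR 4.0.16 in R 4.3.3 (TMM, filterByExpr, quasi-likelihood, Benjamini-Hochberg, 138996 regions, and 18144 locus sums), checked on simulated data. DESeq2 1.42.0, library totals, strength offsets, other filters, locus widths and leaving out each library were alternatives. Peaks overlapped by at least 1 bp. All 10 members are named. Members and lists were chosen with earlier results of these data known. No label says whether the column numbers of the count table pair libraries. Correlations between the groups were 0.26, 0.01 and 0.15 for equal numbers and -0.25 to 0.14 for unequal ones, so pairing is not settled. Intervals cover counting error only.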

Additional observations from a re-analysis of the deposited data

How the results depend on the processing

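Counts at the members (15 regions lower, 9 higher; 6 starts lower; 4 loci lower, 2 higher) moved as follows; the cause was not tested. Lower regions: 5 with library totals, 6 with strength offsets, 8 needing peaks in all 6 lists, 3 with a 1.2-fold minimum, 7 to 19 with 1 library left out. Higher regions: 16, 6, 4, 5, and 6 to 12 in that order. Lower starts: 2, 0, 3, 2, and 3 to 9. Lower loci: 2 with library totals, 1 with strength offsets, 1 to 4 with 1 library left out; higher loci: 1 with no flank and 1 with 50 kb. With the replicate block by column number, a pairing that is not settled, 22 regions were lower, 11 higher, 9 starts lower, and 4 loci lower and 3 higher. Strength offsets reversed the regions by Naca (0.0095), Aebp1 (0.051) and the Pole2 far end (0.057) and the starts of Pole2 (0.11), Pcna (0.094) and Pole (0.025). The excess of peaks per library was 0 at equal list length and 13.5 to 20 with 1 library left out. Without flanks, bulk, mature, nascent and sorted lists held 477, 136, 66 and 66 member peaks. At equal length, nascent shares at ESC 0 h, 9 h, EpiLC 48 h, MEF 6, 12 and 36 h were 68.4%, 73.3%, 70%, 66.7%, 92.9% and 84.6% (all loci 72.2%, 68.8%, 66.7%, 46.7%, 70.6% and 70.6%), and mature shares 78.9%, 100%, 90%, 33.3%, 93.3% and 92.3% (all loci 81.4%, 82.9%, 81.6%, 52.8%, 78.4% and 81.8%), with 3 member peaks at MEF 6 h. Requiring overlap of at least 0.5 of a peak gave nascent 14.4% at 0 h, 0% at MEF 6 h and 15.9% at 36 h, and mature 4.12% at MEF 6 h; it gave 54.4% lost by 48 h and 15.9% gained between MEF 12 and 36 h. A score of at least 100 gave 14.5% lost between 0 and 9 h and 4.55% gained between MEF 6 and 36 h in the mature arm. Among single regions (called or at a start) and loci, 406 recomputed values kept their status, called or not called. Another 106 lost a call, 7 gained one and 6 changed sign. Of the 24 called regions, 5 kept their call under every alternative that could be run. Depth limits the regions of few counts, such as that of Pola1 at 0.307 CPM.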
